A study of Mus musculus with 21 samples.

Results

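The genes described here are 58 genes of DNA replication and mitosis, measured by RNA sequencing in mouse pancreatic islets among 55536 genes in the counts, of which 27229 passed the filter on low counts. They were listed by name for their textbook roles, and each symbol matched 1 Ensembl identifier. The list and the tests were chosen with earlier results of these data known. By role, 28 belong to mitosis and 21 to S phase, the phase in which DNA is copied, while 5 act in the checkpoint, DNA repair or chromatin and 4 are transcription factors of the cell cycle. All 58 passed the filter, and 47 had a mean of at least 50 normalised read counts.

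A cell that divides first licenses its replication origins and copies its DNA, and then condenses, aligns and separates its chromosomes. The genes for these steps are switched on in waves: E2F factors act on the S-phase genes at the boundary of G1 and S, and the MuvB complex, with MYBL2 and then FOXM1, acts on the mitotic genes in G2. In resting cells the DREAM and RB complexes hold both sets down. Adult β-cells divide rarely, and obesity and insulin resistance in mice are known to raise their division. Some proteins of the S-phase set also serve DNA repair and mitochondrial or nucleotide metabolism, and are made outside S phase.

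The samples were islets of CBA males on a regular diet (RD), on a high-fat diet (HFD) and on the HFD with O304 (HFD-O304), with 7 samples in each group and 21 in all. O304 activates AMPK, the kinase by which cells sense a lack of energy, and was given in the food (0.8 mg in each g of the HFD). Diets began at 10 weeks of age and islets were taken at 20 weeks, a span of 10 weeks, while the methods give 9 weeks of diet. Each sample was RNA from 150 hand-picked islets out of a pool from 5 mice, and whether any mouse or pool gave more than 1 sample is not stated. The p-values set group differences against the spread between these samples and take the samples as independent, which is not known. Values are read pairs per gene on the coding strand, divided by the size factor of the sample, and are called normalised read counts.

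Read pairs on genes ranged from 13809266 to 48922569 a sample, with HFD-O304 replicate 2 the shallowest. In every group, replicates 1 to 4 have lower library numbers than replicates 5 to 7. The numbers run group by group in replicates 1 to 4 and alternate between groups in replicates 5 to 7. The division, called library sets here, was inferred from this order and is not stated in the labels. HFD-O304 replicate 1 is titled HFD-O304 but carries the diet tag HFD, and was grouped by its title. HFD replicate 7 stood apart from the other HFD samples in the genes described here, and the counts, ratios, class means and spread that rest on it are also given without it, a choice made after the data were seen. For the ratios, class means and spread no other single sample was left out. The 8 β-cell markers were detected in every group, with a summed level of 10087287 to 12208452 normalised counts in RD islets.

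Because S-phase and mitotic genes are known to be controlled through different promoter elements, the promoters were read first. RefSeq promoters (GRCm38.p6, 250 bases before to 50 after the annotated start) were found for 48 of the 58 members. On either strand, 3 kinds of motif were searched: the cell cycle homology region (CHR), the CCAAT box and the E2F site. The CHR was searched as TTTGAA and as TTCGAA, and the box by its letters CCAAT alone. For the E2F site the letters TTGGCGC were searched first, then the letters TTCCCGC, the letters TTCGCGC and last the letters TTGCCGC. E2F matches on opposite strands can overlap, as in Mcm5 and Mcm6. The CHR was in the promoter of 18 of 23 mitotic members (78.3%), 3 of 17 S-phase members (17.6%) and 19.4% of all 27025 genes with a listed promoter. The E2F site was in 11 of 17 S-phase members (64.7%), 4 of 23 mitotic members (17.4%) and 9.69% of all genes. A CCAAT box was in 21 of 23 mitotic members, 15 of which had 2 or more, in 12 of 17 S-phase members and in 37.9% of all genes. These are matches of letters, not shown to be bound sites.

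For the sequences, the 250 bases before the start of 3 mitotic members with high counts and 3 S-phase members are printed 5′ to 3′ with all 3 kinds of motif in capitals. Mki67 (chr7:135716380-135716629, minus strand), Top2a (chr11:99024190-99024439, minus) and Cdk1 (chr10:69352913-69353162, minus) have 2, 4 and 2 CHR matches and 1, 0 and 2 E2F matches. Mcm5 (chr8:75109259-75109508, plus), Mcm6 (chr1:128359706-128359955, minus) and Pola1 (chrX:93632156-93632405, minus) have no CHR match and 3, 4 and 3 E2F matches. Not all S-phase promoters are like these: 11 of 17 had an E2F match, whereas Mcm2 (1 CHR match) and Pcna (0 CHR matches) had 0. None of the 6 windows overlaps another annotated gene, and 26 bases of the Cdk1 window lie inside the Cdk1 gene as Ensembl draws it.
Mki67: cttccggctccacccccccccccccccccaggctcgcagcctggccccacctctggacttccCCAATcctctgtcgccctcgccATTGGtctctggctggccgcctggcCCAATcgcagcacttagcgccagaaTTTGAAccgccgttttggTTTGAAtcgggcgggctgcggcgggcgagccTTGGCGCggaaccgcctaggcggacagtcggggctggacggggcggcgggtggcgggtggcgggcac
Top2a: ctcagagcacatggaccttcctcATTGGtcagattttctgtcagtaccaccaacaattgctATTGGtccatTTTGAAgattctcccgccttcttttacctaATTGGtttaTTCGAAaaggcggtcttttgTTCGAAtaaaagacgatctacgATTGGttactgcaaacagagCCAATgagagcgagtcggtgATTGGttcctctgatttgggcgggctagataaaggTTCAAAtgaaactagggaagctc
Cdk1: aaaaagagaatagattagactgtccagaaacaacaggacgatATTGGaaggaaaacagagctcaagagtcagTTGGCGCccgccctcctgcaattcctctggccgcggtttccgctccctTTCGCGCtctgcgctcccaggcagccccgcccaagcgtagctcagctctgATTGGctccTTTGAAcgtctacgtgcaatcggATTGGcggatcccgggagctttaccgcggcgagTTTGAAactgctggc
Mcm5: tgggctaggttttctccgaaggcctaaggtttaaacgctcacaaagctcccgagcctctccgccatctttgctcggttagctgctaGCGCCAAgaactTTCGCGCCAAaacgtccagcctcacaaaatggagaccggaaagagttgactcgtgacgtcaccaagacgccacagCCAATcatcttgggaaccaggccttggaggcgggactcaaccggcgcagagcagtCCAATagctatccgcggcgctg
Mcm6: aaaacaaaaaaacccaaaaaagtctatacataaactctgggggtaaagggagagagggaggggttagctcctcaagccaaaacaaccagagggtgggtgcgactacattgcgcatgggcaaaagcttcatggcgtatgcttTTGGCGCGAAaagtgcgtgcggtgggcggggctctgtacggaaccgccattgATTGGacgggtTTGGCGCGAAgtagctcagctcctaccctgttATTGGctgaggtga
Pola1: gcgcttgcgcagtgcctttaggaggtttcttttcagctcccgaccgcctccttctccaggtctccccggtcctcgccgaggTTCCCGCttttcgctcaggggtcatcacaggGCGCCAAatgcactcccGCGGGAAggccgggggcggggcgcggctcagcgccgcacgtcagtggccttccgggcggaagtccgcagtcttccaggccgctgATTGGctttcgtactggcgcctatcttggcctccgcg
In the CHR class the match nearest the start lay 98 bases before it in Mki67, 23 in Top2a and 15 in Cdk1.

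In HFD vs RD islets the mitotic genes rose together and the S-phase genes rose unevenly. Of the 58 members, 40 were higher in HFD islets at an adjusted p under 0.01 in edgeR's quasi-likelihood test with Benjamini-Hochberg adjustment over all genes, and 0 were lower, where 2.00% of all genes tested were higher. The 40 were 26 of 28 mitotic members, 9 of 21 S-phase members, 2 of 5 of the checkpoint, repair and chromatin members and 3 of 4 transcription factors. The median log2 fold change was 1.47 over the mitotic members (2.78-fold) and 0.57 over the S-phase members (1.48-fold), against -0.004 over all genes tested. All 58 had a log2 fold change above 0, and 54 had an unadjusted p under 0.05, which 20.98% of all genes tested had in either direction. In bulk islets, a change in the number of dividing cells and a change in the RNA of these genes per cell cannot be told apart.

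**Figure D1:**
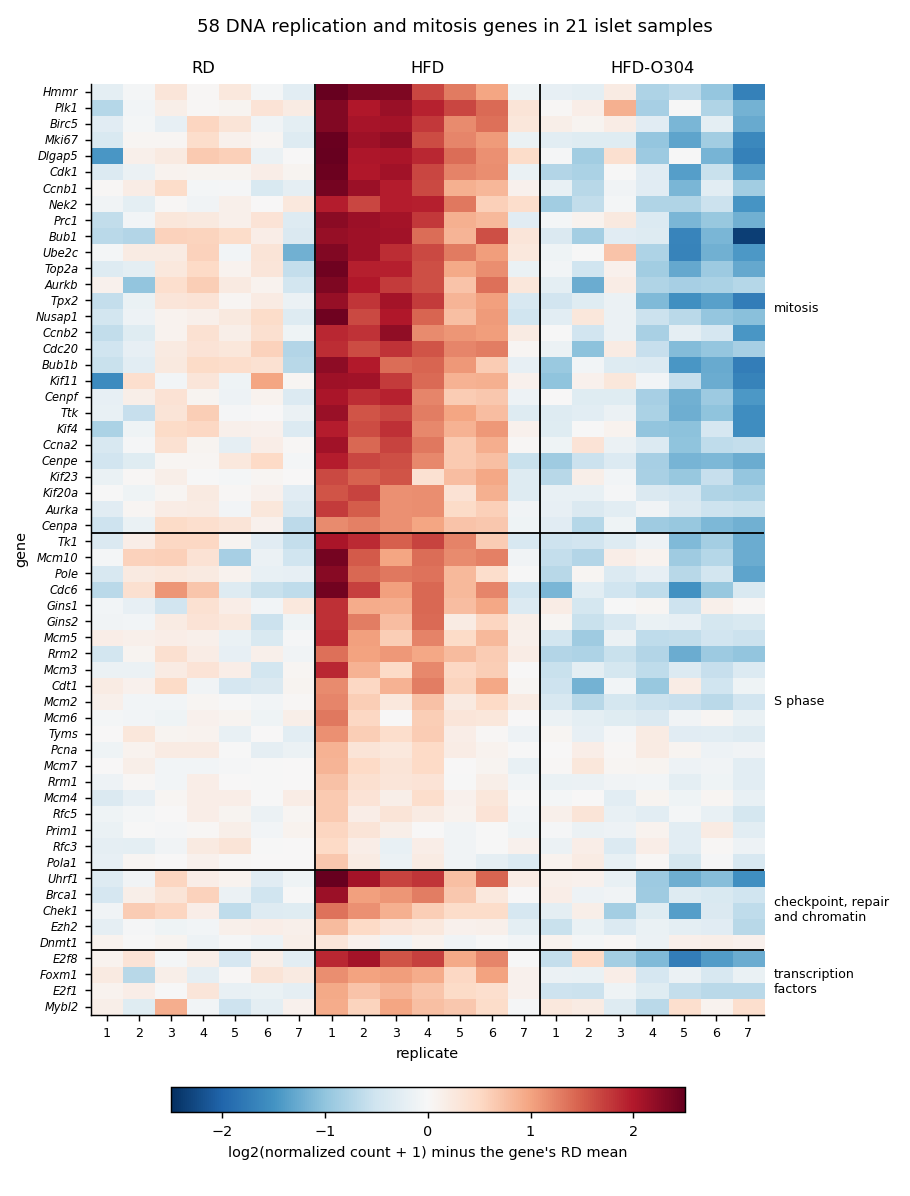
Each row is 1 of the 58 genes and each column 1 of the 21 samples, in replicate order within RD, HFD and HFD-O304; the colour is the log2(normalised count + 1) minus the mean of that gene in RD, in log2 units (red higher, blue lower). The mitotic rows are red in HFD replicates 1 to 6 and near white in HFD replicate 7, and the rows of Dnmt1 and Pola1 stay pale.

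Mki67 (ENSMUSG00000031004, chromosome 7 from 135689784 to 135716361), which encodes the chromosome surface protein Ki-67, had a lowest, median and highest count of 169, 226 and 297 in RD, 196, 677 and 1221 under HFD, and 70.7 to 183 (mean 132.3) under HFD-O304. The 6 HFD samples other than replicate 7 (195.6) were at 456 or more, above every RD sample, and replicate 7 lay within the RD range. Its log2 fold change was 1.68 (SE 0.27, adjusted p = 0.000241, edgeR). Top2a (chromosome 11 from 98992943 to 99024189), the topoisomerase that untangles sister chromatids, had 145, 231 and 311 in RD and 194, 668 and 1183 in HFD islets, with a log2 fold change of 1.54 (SE 0.27, adjusted p = 0.000723, edgeR). In Top2a, too, HFD replicate 7 was the sample that lay among the RD values.

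Among the cyclins and kinases of mitosis, 7 of 7 rose, with log2 fold changes from 1.03 (Aurka) to 1.79 (Plk1). Cdk1 (chromosome 10 from 69335146 to 69352938), the kinase that drives entry into mitosis, had 65.1, 86.5 and 92.0 in RD and 73.0, 263 and 453 in HFD islets (log2 fold change 1.67, SE 0.26, adjusted p = 0.000195, edgeR). Its partner Ccnb1, cyclin B1, had 29.6, 38.1 and 53.5 in RD and 41.7, 123 and 207 in HFD islets (1.59, SE 0.26, adjusted p = 0.000359, edgeR). In both genes the lowest HFD value, replicate 7, fell inside the RD range and the next lowest was above it. Nek2, a centrosome kinase, was the mitotic member whose groups did not overlap, with 10.5 to 15.4 in RD and 17.4 to 52.4 in HFD islets.

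Birc5 (survivin) and Aurkb, of the chromosomal passenger complex that corrects kinetochore attachment, rose by 1.69 and 1.52 on the log2 scale. All 5 members of the spindle checkpoint and the anaphase-promoting complex rose, from Ttk (1.30, the checkpoint kinase MPS1) to Bub1 (1.56). Of the centromere genes, Cenpe and Cenpf rose, whereas Cenpa, the centromeric histone, had 0.83 (adjusted p = 0.0125, edgeR), the smallest change of the mitotic members, with 40.6, 69.8 and 90.4 in RD and 60.0, 128 and 156 in HFD islets. Of 9 kinesin and spindle genes 8 rose, led by Hmmr, a spindle assembly factor, with 49.4, 57.4 and 72.9 in RD and 54.8, 191 and 358 in HFD islets (1.80, SE 0.29, adjusted p = 0.000299, edgeR). Kif11, the motor that separates the spindle poles, had a log2 fold change of 1.34 with an adjusted p of 0.0103 (edgeR), and its RD samples ranged from 7.47 to 48.7.

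The S-phase members fell into parts. Of 11 genes of origin licensing and the replicative helicase, 6 rose, of 4 genes of nucleotide supply 2 rose, and of 6 genes of the polymerases, primase, clamp and clamp loader 1 rose. Mcm2 (ENSMUSG00000002870, chromosome 6 from 88883474 to 88898780), a helicase subunit, had 553, 578 and 641 in RD and 671, 827 and 1353 in HFD islets, and was the S-phase member whose groups did not overlap (log2 fold change 0.57, SE 0.11, adjusted p = 0.00137, edgeR). Its partners in the same ring differed: Mcm5 and Mcm3 rose by 0.95 and 0.87, whereas Mcm6, Mcm7 and Mcm4 had 0.49, 0.32 and 0.27 with adjusted p of 0.0235, 0.0748 and 0.0718 (edgeR). Cdt1, which loads the ring, had 36.3, 51.6 and 68.3 in RD and 50.4, 90.4 and 120.1 in HFD islets (0.80, adjusted p = 0.0123, edgeR). Cdc6, which acts with it, had a log2 fold change of 1.20 with an adjusted p of 0.0184 (edgeR) and ranged in RD from 21.4 to 75.7. Mcm10, Gins1 and Gins2, which help to fire the helicase, rose by 1.31, 1.04 and 0.97.

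Pcna (ENSMUSG00000027342, chromosome 2 from 132249162 to 132253314), the sliding clamp and a common marker of proliferation, had 649.5, 755 and 875 in RD and 756, 913 and 1395 in HFD islets. Its groups overlapped, and its log2 fold change of 0.32 (SE 0.10) had an adjusted p of 0.0417 (edgeR). Pola1, Rfc3 and Prim1, of the primase-polymerase and the clamp loader, had log2 fold changes of 0.06, 0.08 and 0.12 with adjusted p from 0.556 to 0.851 (edgeR). Pola1 had 236, 276 and 294 in RD and 215, 257 and 435 in HFD islets, the smallest change of the S-phase members. Rfc5, another clamp loader subunit, had 187, 208 and 232 in RD and 196, 239 and 324 in HFD islets (0.25, adjusted p = 0.176, edgeR). Pole, the leading-strand polymerase, was the member of this list that rose (1.22, adjusted p = 0.00213, edgeR).

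Rrm2 (chromosome 12 from 24708241 to 24714146), the regulated subunit of ribonucleotide reductase, had 134, 191 and 242 in RD and 209.5, 361 and 475 in HFD islets. It rose by 0.88 on the log2 scale (SE 0.14, adjusted p = 0.000293, edgeR), with HFD replicate 7 the sample inside the RD range. Rrm1, the constant subunit of the same enzyme, had 0.28 (adjusted p = 0.0404, edgeR). Tk1, thymidine kinase, had the largest change of the S-phase members, with 14.3, 23.4 and 32.3 in RD and 16.5, 64.3 and 94.9 in HFD islets (1.36, SE 0.28, adjusted p = 0.00271, edgeR). Tyms, thymidylate synthase, had 164, 199 and 240.2 in RD and 179.9, 269 and 438 in HFD islets (0.46, adjusted p = 0.0517, edgeR).

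Uhrf1 and Dnmt1, which act together in copying DNA methylation after replication, stood at opposite ends of the chromatin members. Uhrf1, which recognises the half-methylated DNA, had 31.0, 36.4 and 57.2 in RD and 44.3, 129 and 225 in HFD islets (1.63, SE 0.28, adjusted p = 0.000575, edgeR). Dnmt1, the methyltransferase, had 979, 1061 and 1186 in RD, 1005, 1070 and 1317 under HFD and 974, 1133 and 1179 under HFD-O304. All 3 groups of Dnmt1 overlapped, with a log2 fold change of 0.03 (SE 0.06, adjusted p = 0.856, edgeR). Brca1, of homologous recombination, rose by 1.02, and Chek1 (0.66, adjusted p = 0.082, edgeR) and Ezh2 (0.28, adjusted p = 0.174, edgeR) did not pass the threshold.

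Of the transcription factors, E2f8, a repressor induced late in S phase, had 14.7, 21.4 and 25.8 in RD and 19.99, 61.3 and 87.6 in HFD islets (1.48, SE 0.27, adjusted p = 0.00103, edgeR). Foxm1 had 67.0, 120.9 and 136.5 in RD and 117.3, 220.2 and 245 in HFD islets (0.83, SE 0.15, adjusted p = 0.00107, edgeR). E2f1 had 474, 553 and 682 in RD and 595, 895 and 1074 in HFD islets (0.61, SE 0.11, adjusted p = 0.00104, edgeR). In each of these 3 genes HFD replicate 7 was the only HFD sample inside the RD range. Mybl2, at 13.9 to 38.8 in RD and 19.99 to 41.2 in HFD islets, had a log2 fold change of 0.59 (adjusted p = 0.115, edgeR), the smallest of the 4.

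**Figure D2:**
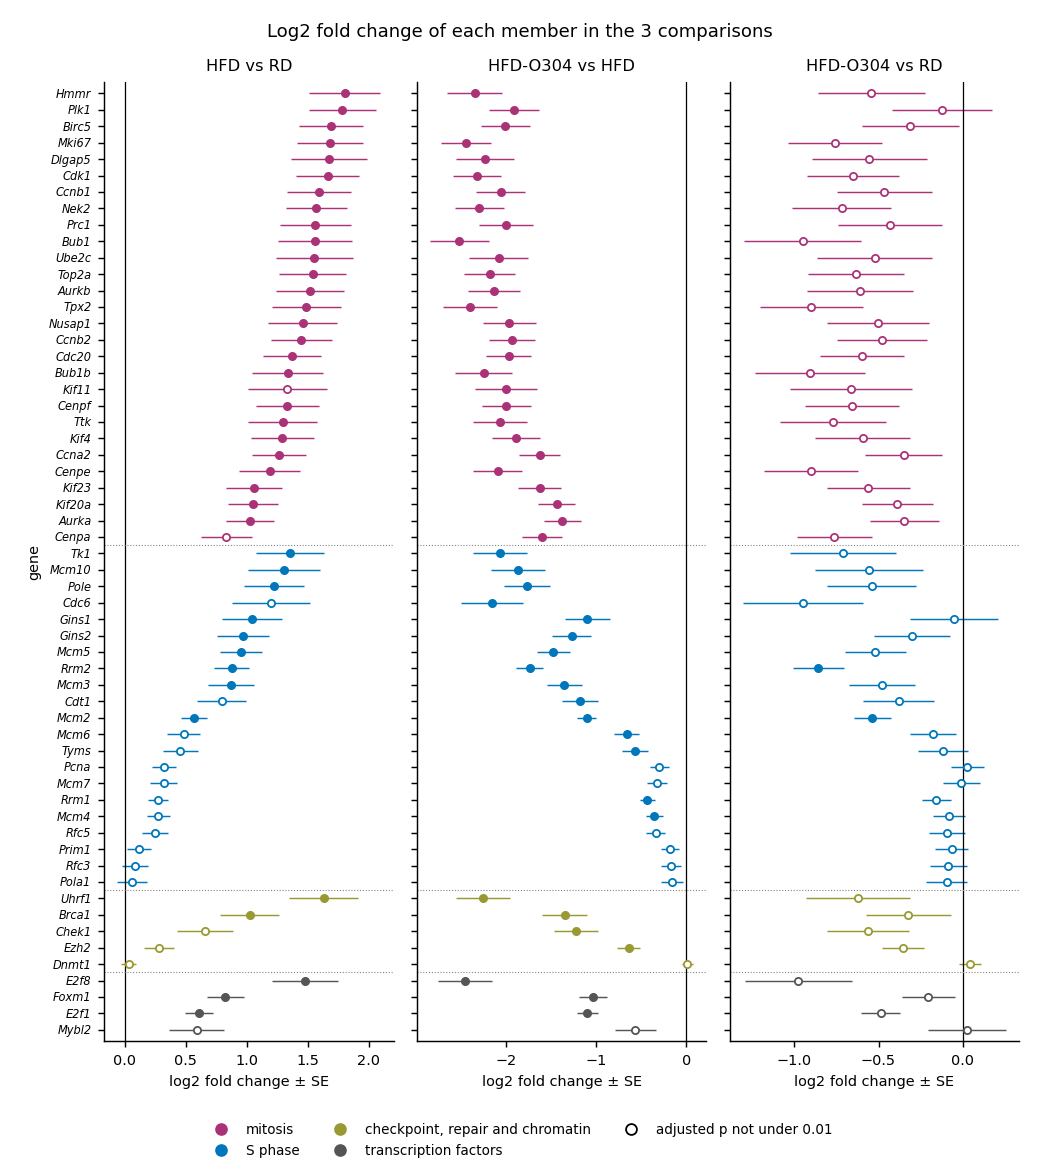
Points are the log2 fold change of each of the 58 genes with its standard error in HFD vs RD, HFD-O304 vs HFD and HFD-O304 vs RD islets; filled points have an adjusted p under 0.01 (edgeR). In HFD vs RD the mitotic points span 0.83 to 1.80 and the S-phase points 0.06 to 1.36; in HFD-O304 vs RD 2 points, Rrm2 and Mcm2, are filled.

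Comparing HFD-O304 with HFD islets, 50 of the 58 members were lower (edgeR, adjusted p under 0.01) and 0 were higher, where 6.79% of all genes tested were lower. They were 28 of 28 mitotic members, 15 of 21 S-phase members, 4 of 5 checkpoint, repair and chromatin members and 3 of 4 transcription factors. The median log2 fold change was -2.03 over the mitotic members and -1.10 over the S-phase members, against 0.03 over all genes tested. This comparison shares the HFD samples with HFD vs RD. The groups did not overlap for 17 members, 10 of them mitotic, where 3.61% of all genes tested lay lower without overlap.

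Bub1, a kinetochore kinase, had the largest fall (log2 fold change -2.51), followed by E2f8 (-2.46), Mki67 and Tpx2 (-2.39), a spindle assembly factor. Mki67 had a log2 fold change of -2.44 (SE 0.28, adjusted p = 4.39e-07, edgeR), and its highest HFD-O304 sample (183) lay below its lowest HFD sample (196). Cdk1 had 31.2, 49.1 and 81.5 and Top2a 89.0, 118.3 and 235 in HFD-O304 islets, and in both the highest HFD-O304 sample lay above HFD replicate 7 and below the other 6. Ccnb1 had 16.9, 31.8 and 36.6 in HFD-O304 islets, below all HFD samples. Of the mitotic members, Aurka (-1.37) and Kif20a (-1.44) changed least.

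In S phase, Cdc6 and Pola1 stood at the ends of the order. Cdc6 and Tk1 fell by 2.15 and 2.07, and Rrm2 fell by 1.73 (SE 0.15, adjusted p = 5.11e-09, edgeR), with 76.5, 107.1 and 124 in HFD-O304 islets against a lowest HFD value of 209.5. Mcm2 had 358, 403 and 439 in HFD-O304 islets, below every HFD sample (-1.11, SE 0.11, adjusted p = 4.84e-08, edgeR). Cdt1 had 20.9, 34.1 and 56.1 (-1.18, adjusted p = 0.000111, edgeR) and Tyms 157, 169.8 and 229 (-0.57, adjusted p = 0.00556, edgeR). Pcna had 694.5, 778 and 875 in HFD-O304 islets, which overlapped the HFD samples (-0.30, adjusted p = 0.037, edgeR), and Rfc5 had 152, 183 and 259 (-0.34, adjusted p = 0.0256, edgeR). Pola1, Rfc3, Prim1 and Mcm7 were the other S-phase members that did not pass. Dnmt1 (0.01) and Mybl2 (-0.57, adjusted p = 0.0833, edgeR) did not pass either, while E2f1 (-1.10) and Foxm1 (-1.03) fell.

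In HFD-O304 vs RD islets, 2 members were lower (edgeR, adjusted p under 0.01), 0 were higher, where 0.903% of all genes tested were lower. At an unadjusted p under 0.05 there were 24 of the 58 members, against 14.37% of all genes in either direction. The 2 were S-phase genes: Rrm2 (-0.86, SE 0.15, adjusted p = 0.000895) and Mcm2 (-0.54, SE 0.11, adjusted p = 0.0046), both by edgeR. Each had all HFD-O304 samples below all RD samples, the 2 members for which the groups did not overlap, where 0.870% of all genes lay lower without overlap. The log2 fold change was below 0 for 28 of 28 mitotic members, with a median of -0.60 and adjusted p from 0.0653 (Cenpa) upwards, so that 0 of them were called. E2f1, with 346, 379 and 510 in HFD-O304 islets, had -0.49 (adjusted p = 0.0148, edgeR). Without 1 of 8 samples (RD replicates 1, 2, 3, 4 and 7 and HFD-O304 replicates 2, 5 and 6, each in turn) Mcm2 was no longer called and 1 member remained past the threshold, while Rrm2 was called in all 21 such fits. In HFD-O304 islets replicate 7, the mitotic members stood below all RD samples for 27 of 28 genes, and in HFD-O304 replicate 3 for 0 of 28. No share over all genes was taken for these single samples.

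Mitotic and S-phase genes were also compared in 3 pairs, as the log2 ratio of their counts with 1 added (9 tests, Benjamini-Hochberg adjusted, exact two-sided permutation of all splits). The pairs were chosen with earlier results of these data known, so their p-values concern these pairs and do not test the 2 classes. In the first pair, the log2 fold changes in HFD vs RD islets were 1.68 for Mki67 and 0.32 for Pcna. Mki67 relative to Pcna was -1.80 ± 0.22 (SD, n = 7) in RD islets, -0.60 ± 0.71 under HFD and -2.63 ± 0.52 under HFD-O304. It was 1.19 higher in HFD than in RD islets (exact permutation, adjusted p = 0.00874), 2.03 lower in HFD-O304 than in HFD and 0.84 lower in HFD-O304 than in RD islets (both adjusted p = 0.00262, exact permutation). In the last 2 comparisons the groups did not overlap. Cdk1 relative to Mcm2 was 0.96 higher in HFD than in RD islets (adjusted p = 0.0118, exact permutation) and 1.14 lower in HFD-O304 than in HFD islets (adjusted p = 0.0126, exact permutation), and between HFD-O304 and RD islets it differed by -0.19 (adjusted p = 0.409, exact permutation). Top2a relative to Rrm2 differed by 0.54 between HFD and RD islets (adjusted p = 0.0516, exact permutation) and by -0.39 between HFD-O304 and HFD islets (adjusted p = 0.169, exact permutation), neither under 0.05. Without HFD replicate 7 both passed, at 0.69 (adjusted p = 0.00612, exact permutation) and -0.54 (adjusted p = 0.0322, exact permutation), and the other pairs kept their side of 0.05, with 1.42 for Mki67 relative to Pcna and 1.18 for Cdk1 relative to Mcm2 in HFD vs RD islets.

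Averaged over the members in each sample, the log2(count + 1) of the mitotic genes was 5.75 ± 0.28 (SD, n = 7) in RD, 7.07 ± 0.74 under HFD and 5.13 ± 0.45 under HFD-O304. The S-phase mean was 7.26 ± 0.15, 7.87 ± 0.44 and 6.95 ± 0.10 in the same order. The difference between HFD and RD islets was thus 1.32 for the mitotic and 0.61 for the S-phase genes, or 1.54 and 0.73 without HFD replicate 7. With the median over members in place of the mean it was 1.20 and 0.39. The S-phase mean of every HFD-O304 sample lay below that of every RD sample, although 2 of its 21 genes passed the test one by one. With the median over members the groups overlapped, the lowest RD sample being at 7.63 and the highest HFD-O304 sample at 7.67. The mitotic mean of HFD replicate 7 was 5.72, within the RD range of 5.31 to 6.04.

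**Figure D3:**
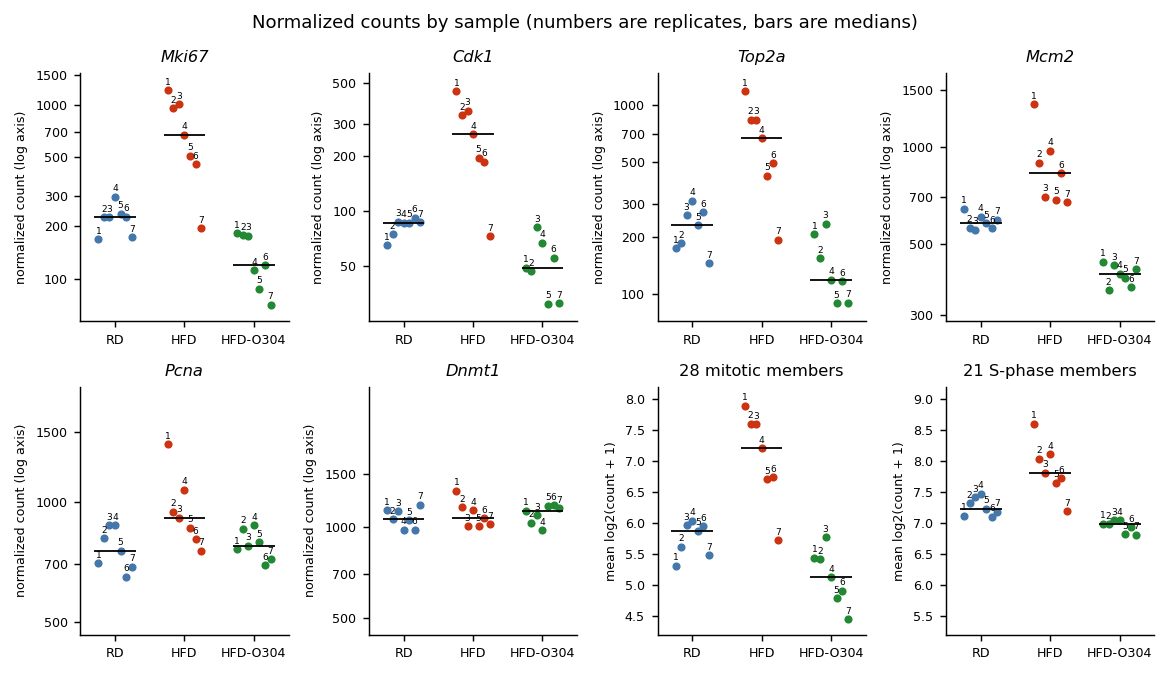
The first 6 panels plot normalised read counts on log axes for Mki67, Cdk1, Top2a, Mcm2, Pcna and Dnmt1 in the 7 RD, 7 HFD and 7 HFD-O304 samples, and the last 2 plot the mean log2(count + 1) of the 28 mitotic and 21 S-phase genes; small numbers name replicates and bars are medians. HFD samples of the mitotic mean run from 5.72 (replicate 7) to 7.89 (replicate 1), and Dnmt1 lies at 974 to 1317 in all samples.

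Over all 7 samples the spread among HFD islets was larger than among RD islets for most members, and it was smaller without replicate 7 and within library sets. Over the 58 members the median SD of log2(count + 1) was 0.29 in RD, 0.67 under HFD and 0.43 under HFD-O304, against 0.15, 0.17 and 0.14 over the 13216 genes with a mean of at least 50 normalised counts. For 56 of 58 members the SD was larger in HFD than in RD islets, and for 49 it was larger than in both other groups, which held for 61.6% and 47.0% of those 13216 genes. Among the 47 members that also had a mean of at least 50, these counts were 47 and 42. Their median SD was 0.27 in RD, 0.64 under HFD and 0.40 under HFD-O304. Without HFD replicate 7 the SD was larger in HFD than in RD islets for 42 members, where this held for 60.03% of those genes, and the HFD median was 0.49. Within replicates 1 to 4 it was larger for 13 of 28 mitotic members (median SD 0.32 in HFD and 0.38 in RD islets) and 17 of 21 S-phase members (0.33 and 0.21), against 61.32% of those genes. Within replicates 5 to 7, which include replicate 7, it was larger for 25 of 28 mitotic members (0.63 and 0.27) and 16 of 21 S-phase members (0.21 and 0.16), against 48.18%. The mitotic mean of the HFD samples was 7.57 in replicates 1 to 4 and 6.39 in replicates 5 to 7. In HFD-O304 islets it was 5.44 and 4.72, whereas in RD islets it was 5.74 and 5.77. The spread over 7 samples in HFD and in HFD-O304 islets thus includes a difference between library sets. The highest HFD sample exceeded the lowest by a median of 4.28 times over the mitotic and 2.38 times over the S-phase members. Among the genes tested singly for spread, as the mean absolute deviation from the group median (8 tests, exact two-sided permutation of the deviations over all splits), Cdk1 had 0.62 in HFD and 0.10 in RD islets and Mcm2 had 0.27 and 0.06 (both adjusted p = 0.0466, exact permutation). Mki67 had 0.67 and 0.18 (adjusted p = 0.0513, exact permutation), and Pcna had 0.20 and 0.14 (adjusted p = 0.53, exact permutation). Neither call held without HFD replicate 7, where Cdk1 had 0.41 and Mcm2 0.26 in HFD islets (both adjusted p = 0.0793, exact permutation). Nor did either hold when deviations were taken from the median of the library set and permuted within sets, at 0.33 against 0.10 for Cdk1 and 0.20 against 0.06 for Mcm2 (both adjusted p = 0.617, exact permutation). Against HFD-O304 islets, none of the 4 genes passed 0.05, with adjusted p from 0.0629 (Mcm2) to 0.476 (exact permutation).

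**Figure D4:**
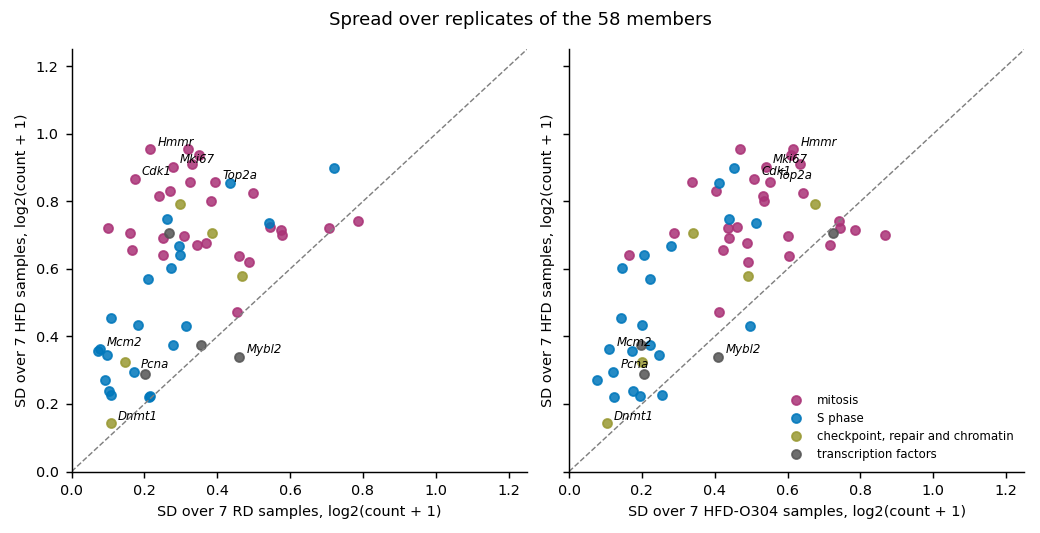
Each point is 1 of the 58 genes; the vertical axis is the SD of log2(count + 1) over 7 HFD samples and the horizontal axis the same over 7 RD samples (left) or 7 HFD-O304 samples (right), with the dashed line at equal SD. On the left 56 points lie above the line, with mitotic genes at higher HFD SD than most S-phase genes (medians 0.72 and 0.43).

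The same HFD samples were highest and lowest in most members of both classes. HFD replicate 1 was the highest HFD sample for 25 of 28 mitotic and 20 of 21 S-phase members, whereas it was highest for 28.03% and lowest for 22.18% of the 13216 genes. HFD replicate 7 was the lowest for 28 of 28 mitotic and 20 of 21 S-phase members, whereas it was lowest for 16.1% of those genes. HFD replicate 1 lay above every RD sample for 58 of 58 members, and HFD replicate 7 for 2 of 58, with 49 inside the RD range and 7 below it. For these counts of single samples against the RD range, no share over all genes was taken. Every HFD sample lay above every RD sample for 2 members, where this held for 0.665% of all genes tested. Without HFD replicate 7, a choice made after the data were seen, it held for 40 members, 27 of them mitotic and 9 of S phase, and for 2.11% of all genes. Without HFD replicate 1 instead, it held for 2 members and for 0.874% of all genes.

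Over the 7 HFD samples, Mki67 and Pcna, on the log2 scale, had a Pearson r of 0.76 (adjusted p = 0.0524) and a Spearman rho of 0.86 (adjusted p = 0.0476), both by exact permutation of all pairings and adjusted over the 2 tests. Without replicates 1 and 7, the samples farthest from the median of Mki67, r was 0.50 over 5 samples, so that the relation rests in part on those samples. Without HFD replicate 7 the edgeR test called 46 members higher in HFD than in RD islets, where 3.18% of all genes were higher, and without HFD replicate 1 it called 33, where 1.54% were.

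The diet difference was also taken within each library set. In replicates 1 to 4 the library numbers run group by group, so that diet and library order cannot be told apart there. In replicates 5 to 7 they alternate between groups. In replicates 1 to 4, 42 of 58 members were higher in HFD than in RD islets (edgeR, adjusted p under 0.01), against 1.39% of all genes, the median on the log2 scale being 1.90 over the mitotic and 0.72 over the S-phase members. In replicates 5 to 7, 3 samples a group, 1 member, E2f1, was called, against 0.747% of all genes, with medians of 0.70 and 0.33, and 28 of 28 mitotic members had a log2 fold change above 0. In Prc1, which bundles the central spindle, HFD replicates 1 to 4 had 345 to 489 normalised counts and replicates 5 to 7 had 83.4 to 189, with 66.2 to 129 in all RD samples. A test of whether the diet difference depended on the library set called 0 of 58 members by edgeR (adjusted p under 0.01), with an unadjusted p under 0.05 for 28 of 58, against 5.71% of all genes, and DESeq2's likelihood ratio test called 1, Prc1 (adjusted p = 0.00993). Between HFD-O304 and HFD islets, 50 members were lower in replicates 1 to 4 (5.12% of all genes) and 36 in replicates 5 to 7 (3.65%), with mitotic medians of -2.13 and -1.80. In HFD-O304 vs RD islets the mitotic median was -0.35 in replicates 1 to 4 and -1.06 in replicates 5 to 7, with 0 and 1 mitotic members called.

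Members with a high level per kb in RD islets tended to have small changes, in S phase more than in mitosis. Per kb of exons, the median RD level was 11.2 normalised counts over the mitotic and 44.4 over the S-phase members, with Pcna highest at 319, followed by E2f1 at 177 and Dnmt1 at 146. Over the 58 members, the log2 of the RD level per kb and the log2 fold change in HFD vs RD islets had a Spearman rho of -0.59, which shares the RD samples between the axes. Against the log2 fold change in HFD-O304 vs HFD islets, which uses no RD sample, rho was 0.62. Within the S-phase members alone rho was -0.66 and 0.62, and within the mitotic members -0.08 and 0.28. These are descriptions over genes, which are not independent replicates. As a difference of means per kb rather than a ratio, HFD exceeded RD islets by a median of 22.1 normalised counts per kb over the mitotic and 11.99 over the S-phase members, with 94.0 for E2f1, 83.0 for Pcna and 3.80 for Dnmt1.

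**Figure D5:**
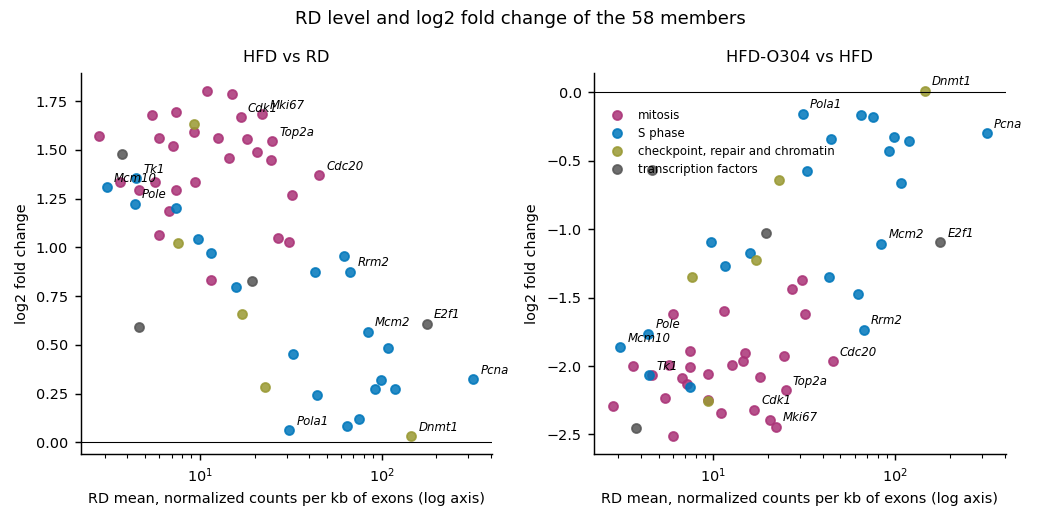
Each point is 1 of the 58 genes, with its RD mean in normalised counts per kb of exons on a log axis and its log2 fold change in HFD vs RD (left) or HFD-O304 vs HFD islets (right). On the left, points of S-phase genes tend to lie nearer 0 at higher RD levels (Spearman rho -0.66), though not in strict order. Pola1, at 31.1 counts per kb, has 0.06 and Pcna, at 319, has 0.32, and mitotic genes stay between 0.83 and 1.80.

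Other genes of the same pathways, from lists set beside the members, were counted in the same way. Of 60 other mitosis genes 38 were higher in HFD than in RD islets and 0 lower (edgeR, adjusted p under 0.01; median log2 fold change 1.15), and 55 were lower and 0 higher in HFD-O304 than in HFD islets (-1.58). The largest rises were Ska1 (2.10), a kinetochore gene with 4.03 normalised counts in RD islets, Cdca5 (1.84), which protects sister cohesion, and Depdc1a (1.84). Of 40 other replication genes 7 were higher in HFD than in RD islets (median 0.35), among them Fanci (1.52) and Clspn (1.49), which act in repair and at stalled forks, and 21 were lower in HFD-O304 than in HFD islets (-0.48). In HFD-O304 vs RD islets 0 of either list were called by edgeR. An unadjusted p under 0.05 (edgeR) was found for 11 of 60 and 8 of 40 genes, against 3912 of all 27229 tested. Of all genes tested, 2.00% were called higher in HFD than in RD islets and 6.79% lower in HFD-O304 than in HFD islets. The share called lower in HFD-O304 than in RD islets was 0.903%.

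Of 16 RB, E2F and DREAM regulators, 1 rose in HFD vs RD islets, E2f2 (0.46, SE 0.11, adjusted p = 0.0066, edgeR), an activating E2F with 339 ± 50.6 normalised counts in RD and 470.1 ± 81.7 in HFD islets (SD, n = 7). In HFD-O304 vs HFD islets 5 were lower: E2f2 (-0.93), E2f7 (-0.89), Tfdp2 (-0.30), Tfdp1 (-0.24) and E2f6 (-0.20). Over the 16 regulators, the median log2 fold change was 0.09 in HFD vs RD islets. Of all genes tested, 2.00% were higher in HFD than in RD islets and 6.79% lower in HFD-O304 than in HFD islets.

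The genes outside these lists whose log2 counts followed the mean of the 28 mitotic members most closely over the 21 samples, by Pearson r among 13046 genes, were Arhgap11a (0.97), Fam111a (0.96), Golm1 (0.96), Ell2 (0.96), Kif20b (0.96), Gc (0.95), Gas2l3 (0.95), Stmn1 (0.95), Sdcbp (0.94) and Dtl (0.94). Kif20b is a mitotic kinesin, Stmn1 binds tubulin and Dtl directs the destruction of CDT1. Gc, the vitamin D binding protein, had a mean of 4184 normalised counts under RD, 9641 under HFD and 2916 under HFD-O304, and Golm1, a Golgi membrane protein, had 1765, 2328 and 1425. Among the members themselves, the r with the mean of the other mitotic genes over the 21 samples was 0.905 (Kif11) to 0.992 for mitotic members, 0.39 (Rfc3) to 0.96 for S-phase members and 0.07 for Dnmt1.

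Markers of islet and other cell types moved with some of these comparisons. The 4 alpha cell markers were all lower under HFD than under RD, and higher under HFD-O304 than under HFD (edgeR, adjusted p under 0.01), with a summed level of 785586 to 1004660 normalised counts in RD, 290847 to 610282 under HFD and 820891 to 1106713 under HFD-O304, and HFD replicates 7 and 1 had the highest sums of the HFD samples. Of 3 delta cell markers 2 were lower under HFD than under RD, and 3 were higher under HFD-O304 than under HFD. Their sum in HFD replicate 7 was 104829, inside the RD range of 86398 to 138140, while the other HFD samples ran from 47104 to 71543. Over the 21 samples, the r of the marker lists with the mitotic mean ran from -0.90 (alpha cell) and -0.85 (delta cell) to 0.56 (endothelial cell). Over the 7 HFD samples it was -0.77 for alpha and -0.76 for delta cell markers. The 8 β-cell markers were called both ways, 1 higher and 1 lower in HFD vs RD islets, and 2 higher and 3 lower under HFD-O304 against HFD. Of the 7 endothelial, 7 macrophage, 8 lymphocyte and 7 fibroblast and stellate cell markers, 0 were called in HFD vs RD islets, and the fibroblast sums were 1519 to 2925 in RD and 1712 to 4860 in HFD islets. In HFD-O304 vs HFD islets 2 endothelial and 3 fibroblast markers were lower, and 4 of 5 duct cell markers, 1 macrophage and 1 lymphocyte marker were higher. The duct cell sums overlapped, at 3095 to 4746 in HFD and 2916 to 5035 in HFD-O304 islets. The sums of 7 acinar markers ran from 157 to 256864 over all samples, with no call in any comparison. Of all 27229 genes tested, 544 were higher and 419 lower in HFD vs RD islets. In HFD-O304 vs HFD islets 1382 of them were higher and 1848 lower. No marker was at 0 in all samples, and the part of these cell types in the results was not tested.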

How the data were processed

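RNA of 21 islet samples was sequenced as 50-base read pairs from a TruSeq library, and the authors aligned reads with STAR to GRCm38 after FastQC. The deposited values are raw read counts per gene and sample, given for 3 ways of using strand, and the reverse-strand counts were used because they held nearly all reads on genes. Counts were tested with edgeR 4.0.16 (quasi-likelihood, TMM, R 4.3.3) in 1 fit of RD, HFD and HFD-O304 over the 27229 genes with at least 10 reads over all samples, with Benjamini-Hochberg adjustment and a threshold of 0.01. DESeq2 1.42.0 gave the size factors of the normalised counts and an alternative test. Ratios and spread were compared by exact permutation on log2(count + 1). The members, the lists beside them and the tests were chosen with earlier results of these data known. Levels by sample are given for 14 members and for the largest and smallest HFD vs RD change in each class; of other lists at most 5 called genes a comparison are named. Kif11, Cdc6, Nek2 and Prc1 were added after their values were seen. The code was tested on simulated data. Reads of Ccnb1, Ccnb2, Kif4, Pcna and Tyms can be shared with pseudogenes, and exons of Top2a, Mcm7 and Foxm1 overlap another gene on the same strand. Alternatives were other filters, normalisations, tools, strand use, blocks, library sets and leaving out each sample.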

Additional observations from a re-analysis of the deposited data

Results flagged for a closer look

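Of 180 groups of 7 values examined, 7 had 1 sample far from the others by Dixon's criterion, and chance gives about 1 in 20. In HFD islets, replicate 1 was far above the rest in Mcm6, at 1257 normalised counts against 770.7 in the next sample, and in Brca1, at 280.5 against 154.1. HFD replicate 7 was flagged for 0 members. In RD islets, Mcm7 was highest in replicate 2 at 482.2 (next 441.3), Mybl2 was highest in replicate 3 at 38.76 (next 22.42), and Pola1 was lowest in replicate 1 at 236.0 (next 275.0). In HFD-O304 islets, Foxm1 was highest in replicate 3 at 122.6 (next 98.87), and E2f8 was highest in replicate 2, the shallowest sample, at 28.74 (next 12.99).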

How the results depend on the processing

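The count of members called in HFD vs RD islets was 40, and 31 to 46 when 1 sample was left out (31 without RD replicate 1), with 31 of the 40 called in all 21 such fits. In replicates 5 to 7 alone it was 1. In HFD-O304 vs HFD islets it was 50, and 48 to 52 when 1 sample was left out. In HFD-O304 vs RD islets it was 2, and 1 to 3 when 1 sample was left out, 5 with only those groups in the fit and 0 in replicates 1 to 4. The interaction of diet and library set was called for 0 members by edgeR and 1 by DESeq2. In replicates 5 to 7 alone, where an exact test of 3 against 3 cannot go below 0.1, Mki67 relative to Pcna differed by 0.55, -1.84 and -1.29 in the 3 comparisons, Cdk1 relative to Mcm2 by 0.31 for HFD against RD and -0.95 for HFD-O304 against HFD, and Top2a relative to Rrm2 by -0.11 in HFD-O304 vs RD, a turned sign. In replicates 1 to 4, Cdk1 relative to Mcm2 turned to 0.15 in HFD-O304 vs RD, and Top2a relative to Rrm2 in HFD vs RD passed 0.05 at 0.87, as it did with a pseudocount of 10 (0.54). Without HFD replicate 7, Top2a relative to Rrm2 passed 0.05 at 0.69 in HFD vs RD and at -0.54 between HFD-O304 and HFD. The spread of Cdk1 and Mcm2 in HFD exceeded that in RD islets by 0.51 and 0.21, and lost its call without HFD replicate 7 (0.31 and 0.20) and within library sets (0.22 and 0.14), both chosen after the data were seen. The cause was not tested. With the replicate block, the counts were 43, 50 and 3. Same-numbered samples, which also share a library set, correlated by a mean of 0.202, 0.139 and 0.293 in the 3 comparisons (-0.532 to 0.64, -0.352 to 0.515 and -0.139 to 0.688), against -0.0344, -0.0194 and -0.0483 for other pairs. Since not every pair correlated, the numbers were not taken to pair the samples, and 3, 2 and 2 samples correlated best with their own number. For the single genes named, calls were counted by gene and comparison, so that 1 gene can count more than once. Of these calls, 14 were lost in replicates 5 to 7 alone, 2 in replicates 1 to 4 and 1 with only the groups compared.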
